A study of Mus musculus with 14 samples.

Results

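The miR-29 family was followed through the mouse epididymis, the duct in which spermatozoa mature on their way from the caput through the corpus to the cauda. The products examined were miR-29a-3p, miR-29b-3p, miR-29c-3p and miR-29a-5p, chosen by name, and all 4 were listed among the 900 miRNA names of the whole tissue table and among the 677 names of the epithelial cell table. Small RNA of the caput, corpus and cauda of Swiss mice aged 8 weeks, all perfused with PBS through the vasculature, was sequenced from whole tissue (3 caput, 2 corpus and 3 cauda libraries) and from isolated epithelial cells (2 libraries per region). Tissue or RNA of several animals was pooled for each library. The epithelial cells came from tissue cleared of spermatozoa, digested with trypsin and collagenase and incubated in culture plates, from which the cells left in suspension were collected. The library totals lay between 1243398 and 2135501 counts in whole tissue and between 89039 and 362867 counts in epithelial cells. The study's methods name the replicates biological and a note of its supplement names them technical, so the adjusted p-values may measure technical spread only.

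MicroRNAs are cut from hairpin precursors, and the strand that is retained by an Argonaute protein pairs with messenger RNAs through its seed, the bases from position 2 to position 8. The 3p strands of the miR-29 family are known for repressing messenger RNAs of collagens and other extracellular matrix proteins and of the DNA methyltransferases Dnmt3a and Dnmt3b, and low miR-29 is a known feature of fibrotic tissue. The 5p strand of miR-29a is the passenger strand, which in most tissues is far scarcer than its partner.

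The mature sequences from RefSeq (GRCm38.p6) are shown with the seed in capitals, since the 3p strands share it.
miR-29a-3p: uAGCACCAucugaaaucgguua
miR-29b-3p: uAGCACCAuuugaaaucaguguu
miR-29c-3p: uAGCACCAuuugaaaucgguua
miR-29a-5p: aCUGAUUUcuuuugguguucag
All 4 products matched the reference table. The seed of the 3p strands was held by 3 of the 1679 mature names in that table, which are these 3. Counted from the 5′ end, miR-29c-3p differed from miR-29a-3p by the substitution C10U only, and miR-29b-3p differed from miR-29a-3p by C10U, G18A, U21G and A22U and is a base longer. The seed of miR-29a-5p is another, so it was not grouped with the 3p strands.

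The family is encoded in a pair of clusters. Mir29a lies at chr6:31062660-31062747 and Mir29b-1 at chr6:31063023-31063093, both on the minus strand and 275 bases apart. Mir29b-2 lies at chr1:195037040-195037120 and Mir29c at chr1:195037547-195037634, both on the plus strand and 426 bases apart. In the GENCODE annotation of the same build, the hairpins on chromosome 1 fall in an exon of the noncoding RNA A330023F24Rik and, on the other strand, in the untranslated region of Cd46, which encodes a complement regulator. Mir29b-1 overlaps the 3′ end of the noncoding RNA Gm27019, and no other gene is annotated over Mir29a. Mature miR-29b-3p is identical from both clusters, so its counts could not be divided between them. The hairpin of Mir29a is shown with both arms in capitals, the 5p arm before the 3p arm, since the balance of the arms is one of the measurements given here.
Mir29a: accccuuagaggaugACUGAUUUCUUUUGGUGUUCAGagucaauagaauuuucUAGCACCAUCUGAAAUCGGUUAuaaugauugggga

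The 3p strands were abundant along the whole duct, and their summed level was highest in the caput on the main scale used here. Levels are given as CPM, the counts scaled to a common library size, after adjustment by the trimmed mean of M values (TMM) within each preparation. In whole tissue, the sum of the 3 strands had a mean ± SD of 7737 ± 536 CPM over the 3 caput libraries, 6102 ± 65.0 over the 2 corpus libraries and 4517 ± 123 over the 3 cauda libraries, so that the caput mean was 1.71 times the cauda mean. As an unscaled share of the library, the same sum was 0.667% for caput, 0.663% for corpus and 0.496% for cauda. The corpus was therefore below the caput on the TMM scale and level with it as a share, while the cauda was below both on either scale. In epithelial cells the sum was 6489 ± 848 CPM for caput, 5376 ± 110 for corpus and 4930 ± 379 for cauda (SD, n = 2 each). The cauda libraries, at 4662 and 5198 CPM, lay below the caput libraries, at 5890 and 7089.

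miR-29a-3p, encoded on chromosome 6, was the most abundant product and ranked 24 among all miRNAs in the whole tissue of the caput and of the corpus, and 25 in the cauda. Its whole tissue level was 5454, 5677 and 6379 CPM in the caput libraries, 4862 and 4853 in the corpus libraries and 3554, 3514 and 3673 in the cauda libraries. No library of a region overlapped a library of the next, and the order of the regions on the TMM scale was caput, corpus, cauda. As a share of the library the corpus mean, 0.528%, was above that of the caput, 0.503%, and the cauda mean was 0.393%. In epithelial cells the caput libraries held 5620 and 4469 CPM, the corpus libraries 4187 and 4259 and the cauda libraries 4234 and 3788, and the corpus and cauda libraries overlapped. By library totals without TMM, the caput libraries held 4977 and 4269 CPM. They then overlapped those of the corpus, at 4059 and 4683, and of the cauda, at 4014 and 4429.

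miR-29b-3p, the product of both clusters, stood in whole tissue at 926, 734 and 823 CPM (caput), 643 and 753 CPM (corpus) and 488, 438 and 494 CPM (cauda). The caput and corpus libraries overlapped, whereas every cauda library lay below all of them. In epithelial cells it was at 697 and 764 CPM (caput), 633 and 776 CPM (corpus) and 555 and 459 CPM (cauda). The cauda libraries were again the lowest, and the other regions overlapped.

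miR-29c-3p, encoded on chromosome 1, stood in whole tissue at 1002, 1066 and 1151 CPM (caput), 551 and 542 CPM (corpus) and 428, 473 and 489 CPM (cauda). Its wider gap lay between caput and corpus, where that of miR-29b-3p lay between corpus and cauda. In epithelial cells it was at 772 and 657 CPM (caput), 479 and 419 CPM (corpus) and 410 and 416 CPM (cauda). In the whole tissue of the caput every miR-29c-3p library lay above every miR-29b-3p library, in the corpus every miR-29b-3p library lay above every miR-29c-3p library, and in the cauda the levels overlapped. These orders between different miRNAs carry the bias of adapter ligation toward particular sequences, which was not measured here.

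miR-29a-5p was scarce in whole tissue and did not follow its partner strand. It was read 28, 22 and 29 times in the caput libraries, 24 and 31 times in the corpus libraries and 34, 28 and 32 times in the cauda libraries, which gave 18.0, 15.2 and 15.9 CPM, 17.9 and 20.3 CPM, and 17.5, 17.2 and 18.9 CPM. All 3 regions overlapped. In epithelial cells its counts were 15 and 9 (caput), 6 and 5 (corpus) and 43 and 19 (cauda), from much smaller libraries, which gave 46.7 and 29 CPM, 48.7 and 51.1 CPM, and 160.1 and 90.7 CPM. Every epithelial library lay above every whole tissue library, and the cauda libraries were the highest and the farthest apart.

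**Figure D1:**
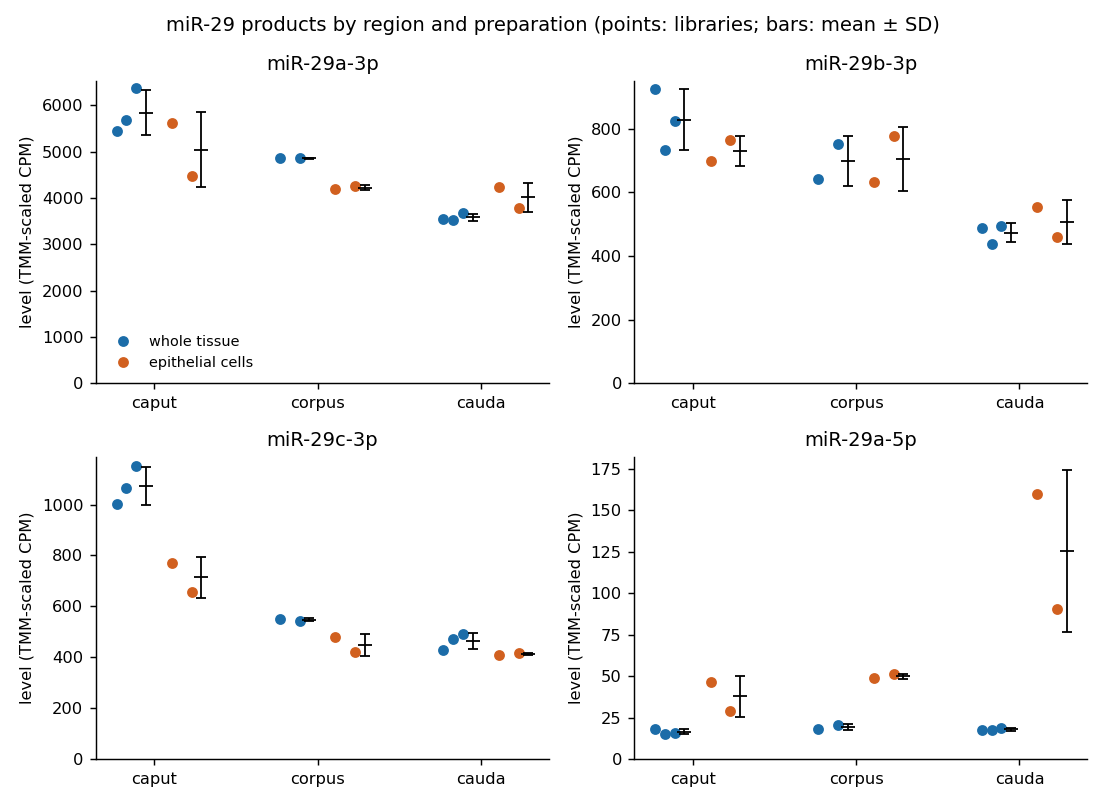
Level of each miR-29 product (vertical axis, TMM-scaled CPM) in the caput, corpus and cauda, with 1 point per library, whole tissue in blue and epithelial cells in orange, and the mean with its SD in black. The 3p strands decline from caput to cauda in whole tissue, and miR-29a-5p reaches 90.7 and 160.1 CPM in the cauda epithelial libraries against 17.2 to 18.9 in the cauda whole tissue libraries.

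The remaining passenger strands were near the limit of detection and none entered a test. miR-29b-1-5p had mean counts between 0 and 1.33 and miR-29b-2-5p between 0 and 1 over the groups, and miR-29c-5p had mean counts between 1 and 5.67. miR-29c-5p lay between 6.44 and 18.7 CPM in the epithelial libraries, from 1 to 6 reads each, and between 0.616 and 5.79 CPM in the whole tissue libraries, from 1 to 9 reads each. These ranges did not overlap, but 1 read alone gave 8.11 and 10.2 CPM in the corpus epithelial libraries. That is above the 5.79 CPM of 9 reads in whole tissue. The separation therefore carries the difference in depth, and it was not tested.

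Whether the regional differences exceeded the spread between libraries was tested with limma-voom over all miRNAs with a mean count above 10 in either region, with p-values adjusted by the Benjamini-Hochberg method over all of them. In whole tissue from caput to cauda, 3 of the 4 products fell at an adjusted p below 0.05, where 41.4% of all 355 miRNAs tested fell. A fall was thus common among the miRNAs of this tissue and the number of products is small. miR-29c-3p fell most, with a log2 fold change of -1.21 ± 0.09 SE (adjusted p = 1.12e-06), which is 2.32-fold lower in the cauda. It was the only product past the study's threshold of a 2-fold change as well, which 53.2% of the miRNAs tested passed in either direction. miR-29b-3p fell 1.74-fold (log2 -0.80 ± 0.11 SE, adjusted p = 9.36e-05) and miR-29a-3p fell 1.63-fold (log2 -0.70 ± 0.08 SE, adjusted p = 2.16e-05). For miR-29a-5p the log2 difference was 0.12 ± 0.19 SE (adjusted p = 0.562), with a 95% interval from -0.30 to 0.55. The median log2 change over all miRNAs tested was -0.05 on the TMM scale and 0.30 when library totals were used instead, and on that scale the 3p strands still fell, by 0.87 for miR-29c-3p, 0.45 for miR-29b-3p and 0.35 for miR-29a-3p on the log2 scale, and miR-29a-5p passed the threshold with a log2 change of 0.47 (adjusted p = 0.0456).

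The steps of the duct at which the whole tissue calls were made differed between the strands, and the difference between strands was not tested. From caput to corpus, 2 of the 4 products fell, beside 32.6% of all miRNAs tested, and from corpus to cauda, 2 of the 4 fell, beside 27.3%. miR-29c-3p had most of its change in the first step, with a log2 fold change of -0.97 ± 0.11 SE (adjusted p = 4.19e-05) from caput to corpus and -0.24 ± 0.11 SE (adjusted p = 0.0833) from corpus to cauda. For miR-29b-3p these were -0.24 ± 0.12 SE (adjusted p = 0.122) and -0.56 ± 0.13 SE (adjusted p = 0.00441). The fall of miR-29b-3p from corpus to cauda missed the threshold without corpus replicate 2 (log2 -0.43, adjusted p = 0.055).

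miR-29a-3p passed in both steps, with log2 fold changes of -0.26 ± 0.09 SE (adjusted p = 0.0277) and -0.44 ± 0.09 SE (adjusted p = 0.00223). The call from caput to corpus held under 1 of the 8 processing alternatives, and with library totals the sign turned, to a log2 change of 0.07 (adjusted p = 0.481), as did that of miR-29b-3p at 0.09 (adjusted p = 0.576). It was also lost in 4 of the 8 fits that left out a library, those without caput replicate 2, caput replicate 3, corpus replicate 1 or corpus replicate 2, where the log2 changes were -0.22, -0.14, -0.27 and -0.21. The fall from corpus to cauda held under all 8 alternatives and without any single library.

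In epithelial cells the same tests made fewer calls. From caput to corpus 0 of the 4 products passed, beside 19.0% of the 205 miRNAs tested, and from corpus to cauda 0 of the 4, beside 13.5% of 192. At an unadjusted p below 0.05 in limma the counts were 1 (miR-29c-3p) and 0, and edgeR and DESeq2 called 0 in both steps. From caput to cauda 2 of the 4 passed, in opposite directions, beside 39.4% of 216. miR-29c-3p fell 1.72-fold (log2 -0.79 ± 0.20 SE, adjusted p = 0.0176), and miR-29a-5p rose 3.25-fold (log2 1.70 ± 0.44 SE, adjusted p = 0.0176). miR-29a-5p was the 1 product past the 2-fold threshold, which 25.9% of the miRNAs tested passed.

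With library totals miR-29c-3p missed the threshold (log2 -0.61, adjusted p = 0.0548). Both epithelial calls were lost when either caput library was left out. miR-29a-5p had a log2 change of 2.09 (adjusted p = 0.0506) without caput replicate 1 and 1.41 (adjusted p = 0.115) without caput replicate 2, and miR-29c-3p had -0.61 (adjusted p = 0.189) and -0.86 (adjusted p = 0.0683). The log2 change of miR-29a-3p was -0.32 (95% interval -0.72 to 0.07, adjusted p = 0.169) and that of miR-29b-3p was -0.52 (95% interval -1.0 to -0.04, adjusted p = 0.0751), the interval not being adjusted for the number of miRNAs. Both intervals hold the change measured in whole tissue for the same strand.

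**Figure D2:**
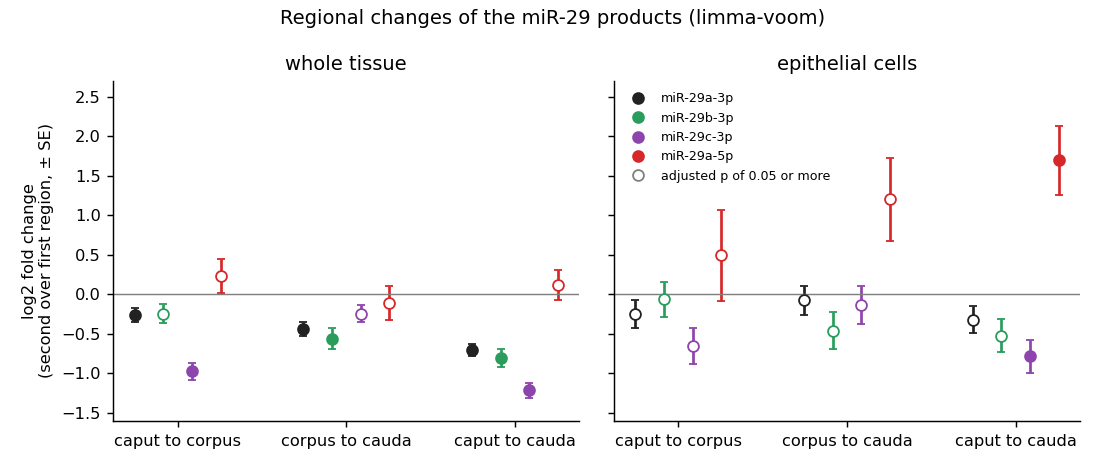
Log2 fold change of each product for the 3 pairs of regions (vertical axis, second over first region, bars ± SE) in whole tissue and in epithelial cells, with filled points for an adjusted p below 0.05. On this TMM scale the 3p strands lie below 0 in every comparison (with library totals miR-29a-3p and miR-29b-3p from caput to corpus in whole tissue, and miR-29b-3p at that step in epithelial cells, turned above 0), and miR-29a-5p reaches 1.70 from caput to cauda in epithelial cells against 0.12 in whole tissue.

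The proportions of the family within a library do not depend on the scaling between libraries. miR-29a-3p made up between 73.7% and 80.0% of the reads of the 4 products in every library. In whole tissue the share of miR-29c-3p had a mean ± SD of 13.8% ± 0.351 over the 3 caput libraries, 8.93% ± 0.192 over the 2 corpus libraries and 10.2% ± 0.601 over the 3 cauda libraries. Every caput library, from 13.5% to 14.2%, lay above every other whole tissue library, and the cauda libraries lay above those of the corpus. In epithelial cells the share was 11.0% ± 0.205 for caput, 8.28% ± 0.952 for corpus and 8.19% ± 0.777 for cauda (SD, n = 2 each), with the caput again the highest. The ratio of miR-29a-3p to miR-29c-3p, which differ by C10U, was accordingly lowest in the caput, at 5.33 to 5.54 in whole tissue and 6.80 to 7.28 in epithelial cells, while the ratio of miR-29a-3p to miR-29b-3p overlapped between caput and cauda in both preparations.

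Between caput and cauda the share of miR-29c-3p differed by -3.62 percentage points in whole tissue and -2.77 in epithelial cells. The exact permutation tests (two-sided) gave p = 0.1 and p = 0.333, which are the smallest values that 3 against 3 and 2 against 2 libraries allow, so a p below 0.05 could not be reached. Between preparations the libraries were permuted within each region. The share of miR-29c-3p was lower in epithelial cells by 1.85 percentage points (difference -1.85, exact permutation p = 0.00333, adjusted p = 0.0167 over 15 tests), in 3 of 3 regions. The share of miR-29a-3p differed by 0.258 points (exact permutation p = 0.743) and that of miR-29b-3p by 0.585 points (exact permutation p = 0.43).

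The balance of the arms of Mir29a differed between preparations, and within each preparation the ratio had no overlap between regions. In whole tissue the reads of miR-29a-3p for each read of miR-29a-5p had a mean ± SD of 359 ± 50.6 over the 3 caput libraries, 255 ± 23.0 over the 2 corpus libraries and 201 ± 5.07 over the 3 cauda libraries. In epithelial cells the ratio was 120.4 and 154 (caput), 86.0 and 83.4 (corpus) and 26.4 and 41.7 (cauda). The ratio was thus highest in the caput and lowest in the cauda of both preparations, and every epithelial library lay below every whole tissue library.

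The counts of the 5p strand limit the precision of these ratios. In the cauda epithelial libraries, miR-29a-5p was 3.64% of the reads of its hairpin in replicate 1 (95% Wilson interval 2.72% to 4.87%) and 2.34% in replicate 2 (1.5% to 3.63%), against 0.488% to 0.511% in the cauda whole tissue libraries, whose intervals reached 0.720%. In the corpus epithelial libraries it was 1.15% (0.528% to 2.48%) and 1.18% (0.507% to 2.74%), from 6 and 5 reads. Reads carried no molecular identifiers, so these intervals cover counting error only. On the log2 scale with 0.5 counts added to each arm, the ratio was lower in epithelial cells by 1.90 (difference -1.90, exact permutation p = 0.00167, the smallest value that the 600 arrangements can give, adjusted p = 0.0125 over 15 tests), in 3 of 3 regions. From caput to cauda it differed by -0.83 in whole tissue (exact permutation p = 0.1) and by -2.0 in epithelial cells (exact permutation p = 0.333), again the smallest values possible.

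**Figure D3:**
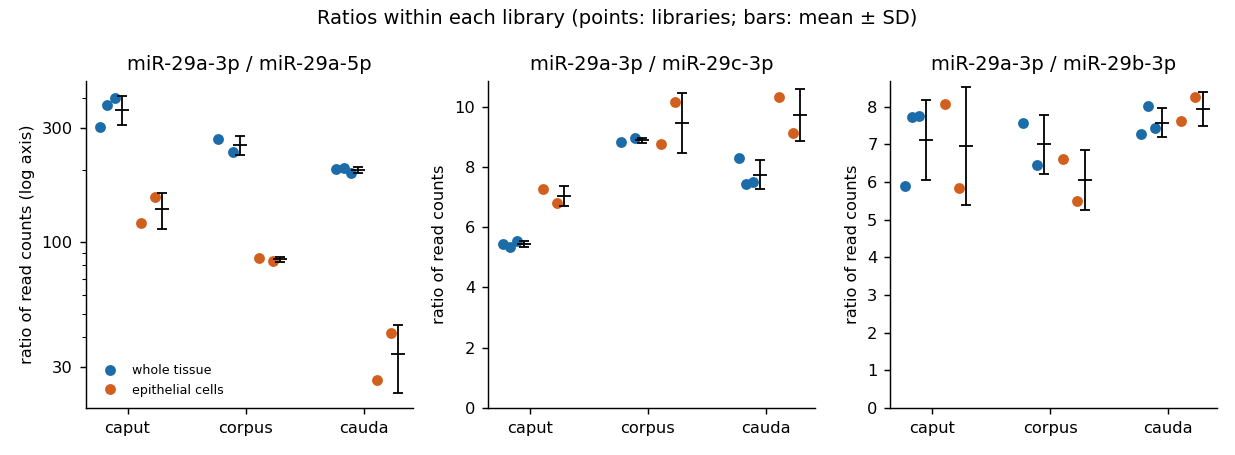
Ratios of read counts within each library by region, with 1 point per library, whole tissue in blue, epithelial cells in orange, and the mean with its SD in black, where the left panel, miR-29a-3p over miR-29a-5p, has a logarithmic axis. In whole tissue that ratio is 303 to 401 in the caput and 195 to 204 in the cauda. In epithelial cells it is 120.4 and 154 in the caput and 26.4 and 41.7 in the cauda, whereas miR-29a-3p over miR-29b-3p shows no such separation.

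Epithelial cells and whole tissue were compared in a joint fit over the 578 names that both tables list. The preparation cannot be told apart from the digestion, the incubation, the depth or the separate tables, and in such bulk samples fewer cells of a type and less RNA per cell cannot be told apart. In the caput 2 of the 4 products differed, beside 51.8% of the miRNAs tested, in the corpus 1 of the 4, beside 37.5%, and in the cauda 1 of the 4, beside 49.0%. By the 2-fold threshold 1 product differed in each region, always miR-29a-5p, beside 35.2%, 25.5% and 37.8% of the miRNAs tested.

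miR-29a-5p was higher in epithelial cells in each region. The log2 difference and its SE were 1.40 ± 0.35 for caput (adjusted p = 0.00336), 1.5 ± 0.42 for corpus (adjusted p = 0.0119) and 2.65 ± 0.29 for cauda (adjusted p = 1.78e-06), and the cauda difference exceeded that of 291 of the 296 miRNAs tested there. The caput call was lost without epithelial caput replicate 1 (log2 1.00, adjusted p = 0.113), and the corpus call without whole tissue corpus replicate 1, epithelial corpus replicate 1 or epithelial corpus replicate 2, at log2 1.29, 1.46 and 1.38. The cauda call held in every fit that could be made.

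miR-29c-3p was lower in the epithelial cells of the caput by 0.41 ± 0.16 SE (log2 difference -0.41, adjusted p = 0.0386). Among the fits that left out a library, the call was lost without whole tissue corpus replicate 2 (log2 -0.38, adjusted p = 0.0685). In the corpus and cauda its log2 differences were -0.25 (95% interval -0.74 to 0.25, adjusted p = 0.415) and -0.30 (95% interval -0.70 to 0.11, adjusted p = 0.197). The differences of miR-29a-3p and miR-29b-3p were between -0.18 and 0.03, and none passed the test with the filter used here. Their intervals in the cauda ran from -0.27 to 0.33 and from -0.48 to 0.42 on the log2 scale, so a 2-fold difference between preparations lay outside them. Other filters brought some of these values past the threshold. With at least 10 counts in every library, miR-29a-3p was lower in the epithelial cells of the corpus (log2 -0.39, adjusted p = 0.0173) and of the cauda (-0.30, adjusted p = 0.0291, where the sign turned), as was miR-29c-3p (-0.46, adjusted p = 0.0325, and -0.62, adjusted p = 0.00182). With no filter miR-29a-3p passed in the corpus (-0.38, adjusted p = 0.0454). In the joint fit, leaving out libraries of another region also brought values past it, with miR-29a-3p in the caput at -0.27 without whole tissue cauda replicate 3 and -0.42 without epithelial cauda replicate 2, miR-29a-3p in the corpus at -0.43 without epithelial cauda replicate 2, and miR-29c-3p in the cauda at -0.47 without whole tissue caput replicate 2.

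Whether the change from caput to cauda itself differed between preparations was tested by the interaction, for which 0 of the 4 products passed in limma, beside 16.0% of the 194 miRNAs tested, and 1 of the 4, miR-29a-5p, had an unadjusted p below 0.05. For miR-29a-5p the log2 change was greater in epithelial cells by 1.26 ± 0.46 SE (adjusted p = 0.0716). It passed the threshold with edgeR's quasi-likelihood test (1.33, adjusted p = 0.0376), with DESeq2 (1.44, adjusted p = 0.0466), with DESeq2's size factors (1.37, adjusted p = 0.0445) and with library totals (1.47, adjusted p = 0.0218). It also passed in 7 of the 14 fits without a library, those without whole tissue caput replicate 3, corpus replicate 1 or cauda replicates 1, 2 or 3, or without epithelial corpus replicate 1 or cauda replicate 2, at log2 1.55, 1.57, 1.53, 1.52, 1.62, 1.56 and 2.02. The interactions of miR-29a-3p, miR-29b-3p and miR-29c-3p were 0.06, -0.02 and 0.11, with 95% intervals from -0.35 to 0.48, -0.62 to 0.57 and -0.41 to 0.64. That of miR-29a-3p passed without epithelial cauda replicate 2 (log2 0.54, adjusted p = 0.0186) and turned to -0.24 with at least 10 counts in every library.

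The same arm comparison was made for other hairpins, chosen after the values of miR-29a had been seen. Among hairpins with both arms tested, the change of the scarcer arm against the more abundant arm, epithelial cells minus whole tissue, had a median log2 value of -0.80 over 70 hairpins for caput, -0.56 over 64 for corpus and -0.63 over 72 for cauda. For miR-29a the values were 1.43, 1.68 and 2.63. A change as large was held by 1 other hairpin in the caput, that of miR-22 (2.49), by 2 in the corpus, those of miR-22 (2.27) and miR-465b (1.74), and by 0 in the cauda. A scarce arm could enter through the deeper whole tissue libraries alone, so the medians over hairpins and the rank of miR-29a carry that selection. The hairpin of miR-29c did not enter, as its 5p arm had too few reads. Its mean counts of the 5p and 3p arms in whole tissue were 5.67 and 1733 (caput), 2.5 and 782 (corpus) and 3.67 and 810 (cauda). In epithelial cells they were 4 and 226, 1 and 50, and 2.5 and 98.5. Its 5p arm was thus also scarcer against its 3p arm in whole tissue.

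**Figure D4:**
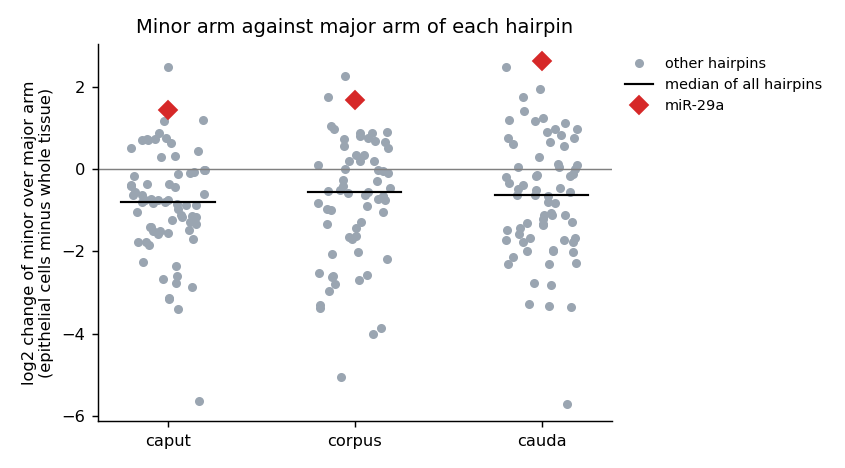
Log2 change of the scarcer over the more abundant arm of each hairpin (vertical axis, epithelial cells minus whole tissue) by region, with grey points for other hairpins, a black line at the median and a red diamond for miR-29a. The miR-29a value rises from 1.43 in the caput to 2.63 in the cauda, where it lies above the values of all other hairpins tested. Hairpins with an arm below the count filter, such as that of miR-29c, are not shown.

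The miRNAs outside the family whose pattern was most like that of each 3p strand were sought among 193 names, which held the other family members too. The measure was the smaller of Pearson's r over the 8 whole tissue libraries and over the 6 epithelial libraries, on log2 CPM. These libraries share their regions, so r includes the differences between the region means. miR-29c-3p was followed most closely by miR-9-5p (r = 0.98 and 0.97), miR-148a-5p (0.97 and 0.96) and miR-146b-5p (0.97 and 0.96). miR-29a-3p was followed by miR-30d-3p (r = 0.89 and 0.93), miR-10a-3p (0.90 and 0.87) and miR-467a-5p (0.95 and 0.85), and miR-29b-3p by miR-135a-5p (r = 0.97 and 0.93), miR-1251-5p (0.90 and 0.88) and miR-183-5p (0.93 and 0.85). Within the family, r (whole tissue, then epithelial cells) was 0.91 and 0.86 between miR-29a-3p and miR-29c-3p, 0.93 and 0.54 between miR-29a-3p and miR-29b-3p, and 0.82 and 0.51 between miR-29b-3p and miR-29c-3p. Among the 193 names, miR-29c-3p ranked 3 in likeness to miR-29a-3p, ahead of miR-467a-5p at 4. Between miR-29a-5p and its partner r was -0.40 in both preparations.

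Other miRNAs with known targets in the matrix or in fibrosis were counted beside all miRNAs tested. Of 17 such miRNAs tested from caput to cauda in whole tissue, 7 rose and 8 fell, where 134 rose and 147 fell of all 355, with a median log2 change of -0.18 beside -0.05 over all miRNAs tested, and with library totals 7 rose and 6 fell, where 167 rose and 110 fell of all, with a median of 0.16 beside 0.30. The range ran from miR-429-3p, a member of the miR-200 family known for maintaining the epithelial state, at log2 -2.43 ± 0.14 SE (adjusted p = 1.65e-07), to the muscle miRNA miR-133a-3p at 3.20 ± 0.85 SE (adjusted p = 0.00565). In epithelial cells 3 of 16 rose and 3 fell, where 45 rose and 40 fell of all 216, with a median of 0.07 beside 0.00 over all, and with library totals 3 rose and 0 fell, where 58 rose and 23 fell of all, with a median of 0.26 beside 0.18. There the range ran from miR-214-3p, a miRNA of stromal cells, at log2 -1.02 ± 0.37 SE (adjusted p = 0.0575), to miR-200b-3p at 0.89 ± 0.20 SE (adjusted p = 0.0099).

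The miR-148 and miR-152 miRNAs also have DNA methyltransferase messenger RNAs among their known targets. In whole tissue miR-148a-3p fell, with a log2 change of -1.94 from caput to cauda, miR-148b-3p fell at -0.59, and miR-152-3p rose at 0.52, so that 1 of 3 rose and 2 fell (1 and 1 with library totals). Of all 355 miRNAs tested there, 134 rose and 147 fell (167 and 110 with library totals). In epithelial cells miR-148a-3p fell at -1.59, and the values of miR-148b-3p and miR-152-3p, 0.02 and 0.42, did not pass the test. Of all 216 miRNAs tested there, 45 rose and 40 fell.

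Markers of cell types changed along with these products. In whole tissue from caput to cauda, all 6 epithelial markers (the miR-200 family and miR-205-5p) fell, from a summed level of 21881 to 23681 CPM to 8185 to 9893 CPM, and all 4 smooth muscle markers (the strands of miR-143 and miR-145a) rose, from 53228 to 65976 CPM to 223163 to 249092 CPM. All 6 fibroblast, 5 leukocyte, 5 red blood cell and 5 striated muscle markers tested rose, as did 7 of 8 sperm and ciliated cell markers and 1 of 2 endothelial markers. In epithelial cells 2 of 6 epithelial markers rose and 2 fell, and 0 of 3 smooth muscle and 0 of 1 striated muscle, 2 of 5 fibroblast, 2 of 2 leukocyte, 3 of 3 red blood cell, 3 of 6 sperm and ciliated cell and 1 of 2 endothelial markers rose. miR-199a-3p and miR-199b-3p held identical values in both preparations, as did miR-486a-5p and miR-486b-5p in whole tissue, so each pair is 1 measurement listed under both names, and the 2 fibroblast markers that rose in epithelial cells are such a pair. With library totals the whole tissue counts differed for endothelial markers only (2 of 2 rose), and in epithelial cells 0 of the epithelial markers fell, and 3 fibroblast, 2 endothelial and 2 sperm and ciliated cell markers rose. The preparations were scaled separately, and marker sums were not tested between them. Smooth muscle markers summed to 144526 to 195706 CPM in caput epithelial libraries, against 53228 to 65976 in whole tissue. In the corpus they summed to 210041 to 212227 against 76253 to 80349, and the cauda libraries, 158218 and 336801, lay on both sides of whole tissue. Epithelial markers were higher in the epithelial libraries of every region (cauda 33642 to 41128 against 8185 to 9893). Endothelial markers were higher there in caput and cauda (cauda 46640 to 56669 against 16398 to 17319), and overlapped in the corpus. These marker counts stand beside 134 rises and 147 falls among all 355 miRNAs tested in whole tissue (167 and 110 with library totals) and 45 rises and 40 falls among all 216 in epithelial cells (58 and 23). The part of these markers in the levels of the miR-29 products was not tested.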

How the data were processed

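The authors sequenced Illumina TruSeq small RNA libraries and deposited a table of expected counts per mature miRNA for each preparation. Per the submitters' processing notes, CASAVA 1.8.2, Bowtie 1.1.1 and limma were used, and the study's methods name miRBase as the reference. Reads that match several miRNAs gave fractional counts, between 2.95% and 4.58% of a library's values, and the 0.001 added to the epithelial table was removed. Expected counts were rounded to whole numbers. The 14 libraries were grouped by the sample titles, 0 columns of per-sample values were left out, and replicate pairs differed by more than sampling noise (chi-square per degree of freedom 9.13 to 63.9).

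Counts were scaled by TMM (edgeR 4.0.16) and tested with voom in limma 3.58.1 under R 4.3.3. Each preparation had its own fit with a mean for each region, beside a joint fit of all 14 libraries for contrasts between preparations. No replicate block was used. A miRNA was tested with a mean count above 10 in either group, and p-values were adjusted by Benjamini-Hochberg with a threshold of 0.05. Shares and arm ratios were tested by exact two-sided permutation (scipy 1.17.1). Alternatives were edgeR's quasi-likelihood test, DESeq2 1.42.0, its size factors, library totals, no filter, a minimum of 10 counts in each library, only the groups compared, a replicate block, and leaving out each library. On simulated counts the whole tissue test from caput to cauda recovered 38 of 41 miRNAs with a log2 change of 1 and 54 of 54 with 2, the epithelial test 23 of 36 and 41 of 44, and the interaction 16 of 37 and 37 of 40.

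The products, the marker lists and the lists of matrix, fibrosis and DNA methyltransferase-targeting miRNAs were chosen with earlier results of these data known. The miRNAs named are the 4 products, the other strands of their hairpins, the extremes of the matrix and fibrosis list from caput to cauda, and the 3 miRNAs outside the family most like each 3p strand. The DNA methyltransferase list, the hairpins that stood above miR-29a and the miRNAs named among the cell type markers were named outside that rule, after their values were seen.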

Additional observations from a re-analysis of the deposited data

How the results depend on the processing

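Of 787 values recomputed under an alternative for 45 results, 676 kept their direction and their side of the threshold, 22 lost a call, 22 gained one and 67 changed sign. The cause of these changes was not tested, beyond the fewer libraries or miRNAs that an alternative leaves. The limits are the 2 or 3 libraries per group, the 5 to 43 counts of miR-29a-5p in epithelial libraries, and the scale, since library totals moved the median log2 change of all miRNAs from caput to corpus in whole tissue from -0.05 to 0.28. With at least 10 counts in every library, miR-29a-5p could not be fitted in epithelial cells or in the joint fit.

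The fall of miR-29a-3p from caput to corpus in whole tissue missed the threshold with the DESeq2 Wald test (log2 -0.22), DESeq2 size factors (-0.21), no filter (-0.23), at least 10 counts in every library (-0.23) and only the groups compared (-0.22), and was 0.071 with library totals. Library totals also gave 0.092 for miR-29b-3p at that step, 0.475 (adjusted p = 0.0456) for miR-29a-5p from caput to cauda, and in epithelial cells -0.61 (adjusted p = 0.0548) for miR-29c-3p from caput to cauda. miR-29b-3p in epithelial cells from caput to corpus was 0.046 with the Wald test, 0.040 with size factors, 0.10 with library totals and 0.0094 with only the groups compared, and from caput to cauda it passed with at least 10 counts in every library (-0.63, adjusted p = 0.0435).

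Between preparations, miR-29b-3p changed sign around 0, to 0.0047 in the caput with edgeR's test, in the corpus to -0.080 with library totals, -0.17 with no filter, -0.18 with at least 10 counts and -0.047 with only the groups compared, and in the cauda to 0.10 with library totals and 0.031 with only the groups compared. miR-29a-3p in the corpus passed with no filter (-0.38, adjusted p = 0.0454) and with at least 10 counts (-0.39, adjusted p = 0.0173), and in the cauda it was -0.0054 with the Wald test, -0.0091 with size factors, -0.11 with no filter and -0.30 (adjusted p = 0.0291) with at least 10 counts. With at least 10 counts miR-29c-3p passed in the corpus (-0.46, adjusted p = 0.0325) and the cauda (-0.62, adjusted p = 0.00182). The interaction of miR-29a-5p was 1.33 with edgeR, 1.44 with the Wald test, 1.37 with size factors and 1.47 with library totals, all past the threshold. That of miR-29b-3p was 0.09 with the Wald test, size factors or no filter (0.0887, 0.0877 and 0.0877) and 0.16 with library totals, and with at least 10 counts those of miR-29a-3p and miR-29c-3p were -0.24 and -0.19.

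Leaving out each library in turn gave, in whole tissue, -0.29 to -0.14 for miR-29a-3p from caput to corpus and -0.65 to -0.43 for miR-29b-3p from corpus to cauda. In epithelial cells it gave -0.17 to 0.10 for miR-29b-3p from caput to corpus, and from caput to cauda 1.33 to 2.09 for miR-29a-5p and -0.86 to -0.61 for miR-29c-3p. Between preparations the caput ranges were -0.42 to -0.0096 (miR-29a-3p), 1.00 to 1.47 (miR-29a-5p), -0.39 to 0.049 (miR-29b-3p) and -0.79 to -0.38 (miR-29c-3p). The corpus ranges were -0.43 to -0.16 (miR-29a-3p), 1.25 to 1.61 (miR-29a-5p) and -0.23 to 0.15 (miR-29b-3p), and the cauda ranges -0.14 to 0.17 (miR-29a-3p), -0.20 to 0.11 (miR-29b-3p) and -0.47 to -0.12 (miR-29c-3p). The interaction ranged from -0.0047 to 0.54 for miR-29a-3p, 1.03 to 2.02 for miR-29a-5p and -0.10 to 0.50 for miR-29b-3p. It passed for miR-29a-3p without cauda epithelial replicate 2 (0.54, adjusted p = 0.0186) and for miR-29a-5p in 7 of 14 such fits. The difference in the share of miR-29a-3p ranged from -0.285 to 0.801 percentage points.

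The labels do not say what a replicate number marks, and the deviations of same-numbered libraries from the region means had r between -0.056 and 0.219 in whole tissue and between -0.181 and 0.199 in epithelial cells, not over 0.1 in every pair, so the numbers were not taken as pairing the libraries. With the replicate number as a block, miR-29a-3p from caput to corpus in whole tissue was -0.22 (adjusted p = 0.0797), and between preparations in the caput miR-29a-3p was 0.032, miR-29b-3p 0.039 and miR-29c-3p -0.33 (adjusted p = 0.115), with miR-29b-3p in the cauda at 0.010. The block changed no other call of a product, and the number of miRNAs called from caput to cauda went from 281 to 281 in whole tissue and from 85 to 78 in epithelial cells. With the cauda numbers crossed, an alternative chosen after seeing the data, 66, 47 and 104 miRNAs were called in epithelial cells from caput to corpus, corpus to cauda and caput to cauda, against 39, 26 and 85 without a block.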
